A study of Mus musculus with 20 samples.

Results

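The comparison set mouse embryonic fibroblasts after 1 h in AICAR against the same cells at 0 h without it. It used 6 of the 20 arrays of the series, the 3 titled as AICAR at 1 h and the 3 titled as controls at 0 h, chosen by those titles. Both groups were SV40-immortalized fibroblasts with a double knockout of Ampkα1 and Ampkα2, the catalytic subunits of the energy sensor AMPK (AMP-activated protein kinase), so the controls carry the deletion as well. The treated cells received 1 mM AICAR for 1 h, the controls received none, and the rest of the series followed the same cells to 2, 4, 8, 12 and 24 h. RNA was hybridised to Affymetrix MG-430 PM array strips, and values are the deposited log2 signals per probe set. The labels describe no vehicle-treated array at 1 h, so AICAR and the hour in culture cannot be told apart. Whether the replicates were separate dishes is not stated, so the p-values measure the spread between arrays only, and this may be technical.

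AICAR is an adenosine analog that cells phosphorylate to ZMP, a mimic of AMP, and it is widely used to activate AMPK. In these cells both catalytic subunits are deleted, so the comparison asks which transcripts differ after AICAR where AMPK is absent. Within an hour, steady-state mRNA can fall appreciably only for transcripts that are quickly degraded, and well known ones among these encode immediate early transcription factors, feedback inhibitors of growth-factor signalling and inflammatory mediators. Arrays report the level of each mRNA relative to the total, and neither synthesis nor decay was measured.

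The 6 arrays had median log2 signals between 5.18 and 5.24. AICAR 1 h replicate 3 stood apart at the bright end: its 99th percentile was 11.76, against 12.00 to 12.02 on the other 2 AICAR arrays and 12.00 to 12.03 on the controls. Its highest value was 13.15, against at least 13.44 on the other 5 arrays. The SD of the difference between 2 arrays over the genes tested ran from 0.149 to 0.174 within the AICAR group. It ran from 0.121 to 0.199 within the controls, and from 0.151 to 0.234 between the groups. The ranges within and between the groups overlapped. Because of replicate 3, counts below are also given without it, with control replicate 3 kept. A probe set was taken as above background where its mean exceeded 5.08, the 95th percentile of 23 nonspecific control probe sets. Of the knockout targets, Prkaa1 averaged 8.19 ± 0.10 at 1 h and 8.19 ± 0.06 at 0 h, and Prkaa2 5.61 ± 0.17 at 1 h and 5.63 ± 0.12 at 0 h (SD, n = 3 each). No wild-type cells are among these arrays, and where the probes lie relative to the deletions is not given here, so these values check nothing about the knockout.

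Almost every gene called at 1 h on the values as deposited was lower. Of 12944 genes tested with limma, 62 (0.479%) differed between AICAR 1 h and 0 h at an adjusted p under 0.05, 61 of them lower (0.471%) and 1 higher (0.00773%). At an unadjusted p under 0.05 there were 554 lower and 168 higher genes of the 12944. These are the base for the unadjusted counts in the lists below. By the measured values 10 of the called genes fell and 1 rose at least 2-fold, counting Kbtbd8 and Disp1, for which 1 group lay below background. Across the lower genes, the median fall was 0.68 on the log2 scale, which is 1.61-fold. The smallest was the 1.30-fold fall of Amotl2, an angiomotin family member that binds YAP. All 61 lower genes had every AICAR array below every control. The same held for 1029 of the 12944 tested genes (7.95%), while 476 (3.68%) had every AICAR array above every control. The median difference over all tested genes was -0.01. The gene lists below were chosen with earlier results of these data known, so their shares against all genes are descriptive and test nothing. In bulk RNA, fewer cells of a type and less RNA per cell cannot be told apart.

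Normalization changed the share of rises. With quantile normalization 84 genes were lower and 26 higher, and with the interquartile range of each array added as a covariate 130 were lower and 23 higher. Without AICAR 1 h replicate 3, 18 genes passed, all lower. All 61 differences were still negative without it, with a median of -0.65. The 18 genes were Rbm3, Gadd45b, Fosl2, Zfp866, Ddit4, Dusp1, Klf2, Jun, Bhlhe40, Errfi1, Zfp568, Socs3, Tsc22d3, Enc1, Sertad1, Zfp97, Phlda1 and Trib1. Except Socs3 and Trib1, they passed whichever of the 6 arrays was left out. Replicate 3 was the lowest AICAR array for 38 of the 61 genes, replicate 2 for 21 and replicate 1 for 2. Among the controls replicate 3 was also most often the lowest, for 43 genes, with replicate 1 lowest for 15 and replicate 2 for 3. The other 45 lower genes lost their call without at least 1 array, and 26 of the 61 passed under at most 2 of the 6 omissions. Among other single omissions, the count was 30 without AICAR replicate 2, 31 without control replicate 2 and 41 without control replicate 1. At the threshold itself, Gadd45g (adjusted p = 0.0428) and Sowahc (0.0432) lay just inside. Rps15a (difference 0.64), Ier5 and Rgs2 lay just outside, at 0.054 each. Ier5 averaged 4.65 at 1 h, below background, and 5.43 at 0 h, so it was at least 1.27-fold lower, and both group means of Rgs2 were below background.

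**Figure D1:**
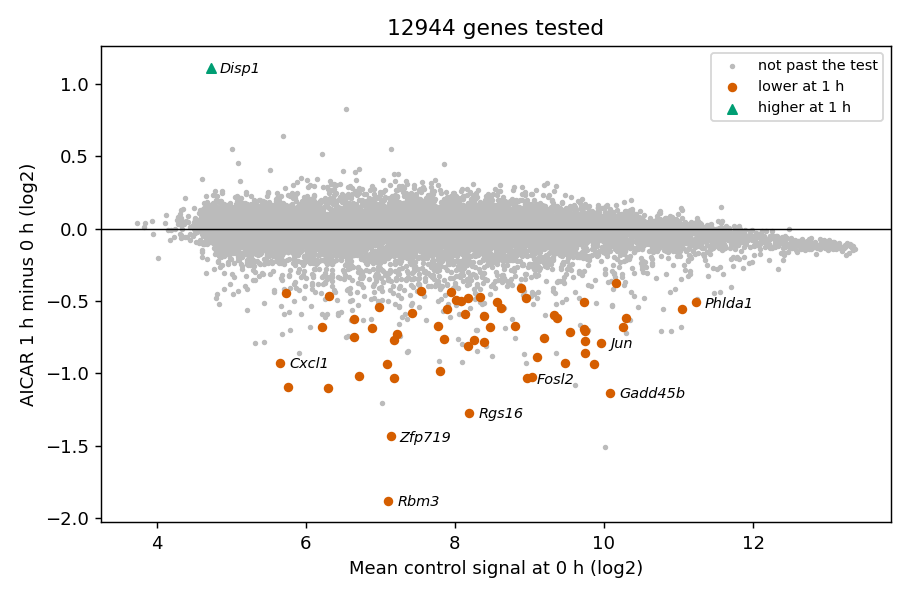
Difference between AICAR 1 h and 0 h (log2, y) against the mean control signal (log2, x), 1 point per gene, with orange circles for the 61 lower and a green triangle for the 1 higher gene. The lower genes sit at medium and high control signals, with a median of 8.25 against 7.32 for all 12944 genes.

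The lower genes were mostly well expressed. Control means of the 61 ran from 5.65 to 11.23. Of 4089 genes with a control signal between 4 and 6, 3 were lower (0.0734%), of 3661 between 6 and 8, 21 (0.574%), of 3495 between 8 and 10, 31 (0.887%), and of 1694 between 10 and 14, 6 (0.354%). Their genes were short: the RefSeq gene span had a median of 8.36 kb among the 61, against 21.7 kb among 12921 tested genes with a span. A span under 10 kb was found for 34 of the 61 (55.7%) and for 27.7% of all.

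The largest fall was that of Rbm3, which encodes a cold-inducible RNA-binding protein. Its log2 signal was 5.51, 5.03 and 5.12 on the AICAR arrays, against 7.57, 7.04 and 6.70 on the controls. The difference was -1.88 ± 0.25 (SE), 3.68-fold lower at 1 h, with an adjusted p of 0.0016. One AICAR array lay below the background level of 5.08 and another just above it, while all controls were well above. Of 32 tested Rbm genes and other cold-inducible RNA-binding genes, Rbm3 alone fell (3.1%, against 0.471% of all genes). In this list 0 rose, and the median difference was 0.01. Cirbp, the other well known cold-inducible member, was chosen after its value was seen and differed by -0.06. At an unadjusted p under 0.05 there were 2 lower and 2 higher genes in this list. The nuclear long noncoding RNA Malat1 was at 6.97, 6.77 and 6.69 in AICAR and 8.05, 7.87 and 7.46 in the controls, a fall of 0.98. It lost its call without AICAR 1 h replicate 3, where the difference was -0.92 (adjusted p = 0.0526).

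Regulators that damp growth-factor and G-protein signalling were among the largest falls. Rgs16, which speeds GTP hydrolysis by Gα subunits, had signals of 7.07, 6.93 and 6.76 after AICAR against 8.33, 8.23 and 8.02 without it. This was a 2.42-fold fall, with the groups 0.95 apart at their nearest arrays. It was the 1 of 13 RGS genes that passed (7.69%, against 0.471% of all genes), with a median of -0.08. At an unadjusted p under 0.05, 3 RGS genes were lower and 0 higher. With quantile normalization 2 passed, Rgs16 and Rgs2, the second below background in both groups. Dusp1, a nuclear phosphatase that inactivates MAP kinases, was at 9.16, 8.81 and 8.81 in AICAR and 9.89, 9.92 and 9.79 in controls. Dusp6, the cytoplasmic ERK-specific phosphatase, was at 8.76, 8.44 and 8.43 in AICAR and 9.52, 9.45 and 9.44 in controls. Dusp1 fell by 0.94 and Dusp6 by 0.93, and their highest AICAR arrays were 0.62 and 0.68 below their lowest controls. Spry4, a Sprouty inhibitor of receptor tyrosine kinase signalling, had 5.46, 5.10 and 5.01 in AICAR and 6.40, 6.29 and 6.18 at 0 h, a fall of 1.10. Another Spry4 probe set above background did not show this, at 5.67, 5.46 and 5.55 in AICAR and 5.38, 5.27 and 5.57 in controls. With the mean of its probe sets Spry4 did not pass (-0.25).

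Among 25 tested ERK feedback genes of the Dusp, Spry, Spred and Etv families and their relatives, 5 fell (20%, against 0.471% of all genes) and 0 rose, with a median of -0.21. With quantile normalization 6 were lower and 1 higher. The other 2 that fell were Errfi1, a direct inhibitor of EGF receptor kinases, by 0.77 (adjusted p = 0.00144) and Phlda1, an ERK-induced pleckstrin-homology protein, by 0.51. The count was 3 without AICAR 1 h replicate 3, and 10 lower and 1 higher at an unadjusted p under 0.05. The 20 members that did not pass ranged from -0.70 for Dusp4 to 0.30. Socs3, the feedback inhibitor of JAK kinases, fell by 0.68, and Trib1, a pseudokinase that recruits the COP1 ubiquitin ligase, by 0.47. Rasl11b, a small Ras-like GTPase, fell by 0.68, and Pim3, a serine/threonine kinase, by 0.59.

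Immediate early transcription factors and their relatives supplied 7 of the 61 falls. Of 34 tested AP-1, Egr and other immediate early regulators, 7 fell (20.6%, against 0.471% of all genes) and 0 rose, with a median of -0.23. All AICAR arrays were below all controls for 21 of the 34 (61.8%, against 7.95% of all genes). The count of falls was 3 without AICAR 1 h replicate 3 and 8 with quantile normalization, and 18 members were lower and 0 higher at an unadjusted p under 0.05. Fosl2, an AP-1 subunit, was at 7.88, 8.07 and 7.86 after AICAR against 8.998, 8.98 and 8.93 without it, a 2.05-fold fall. Its other probe set, at 6.95, 6.77 and 6.94 in AICAR and 6.54, 6.72 and 6.82 in controls, overlapped between groups and leaned the other way. The mean of both gave -0.42 and did not pass (adjusted p = 0.145).

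Jun, the main AP-1 partner, was lower on both of its probe sets. The brighter was at 9.37, 9.16 and 8.99 in AICAR and 10.12, 9.91 and 9.85 in controls, a difference of -0.79 ± 0.10 (SE; adjusted p = 0.00144). The other gave -0.68. Egr1, a zinc finger factor induced within minutes by serum, was at 8.99, 8.87 and 8.82 in AICAR and 9.68, 9.75 and 9.82 at 0 h. The Egr1 values of the groups were 0.69 apart at their nearest. Ier2 fell by 0.71, Ier3, a stress-inducible regulator of apoptosis, by 0.56 and Ier5l by 0.77. The 27 members that did not pass ran from a measured -0.78 for Ier5, below background at 1 h, to 0.09. Fos (-0.49, adjusted p = 0.0996) and Myc (-0.08), chosen after their values were seen, were among them.

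**Figure D2:**
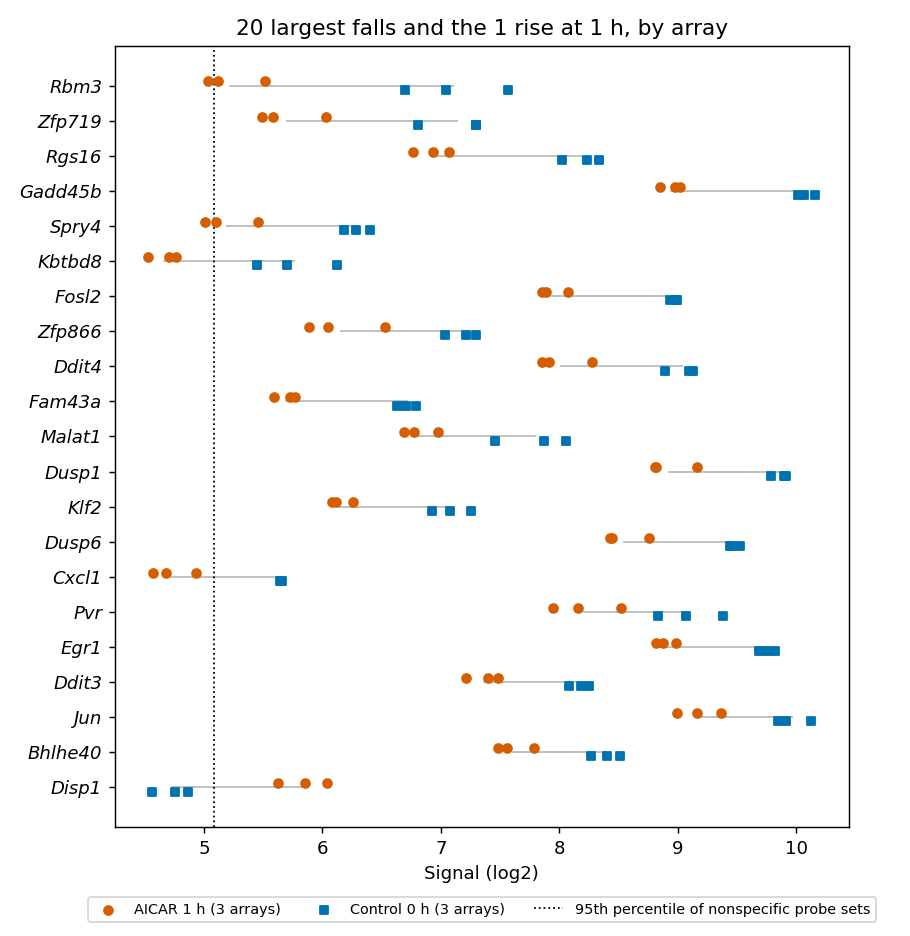
Log2 signal (x) on each array for the 20 largest falls and the 1 rise (rows), with AICAR 1 h as orange circles, controls as blue squares and the background level as a dotted line. In every row the 3 circles lie clear of the 3 squares, and Kbtbd8 and Cxcl1 end below background at 1 h while Disp1 starts below it at 0 h.

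Klf2, a Krüppel-like transcription factor known for its role in endothelium, was at 6.26, 6.08 and 6.11 in AICAR and 7.25, 7.07 and 6.93 in controls. Its groups were 0.67 apart at their nearest arrays, and it passed with any array left out. Klf3, a repressor, fell by 0.71 on the brightest of its 6 probe sets. Of the 4 others above background, 3 were lower without overlap, by -0.93, -0.37 and -0.21, and 1 overlapped between groups (-0.01). Klf3 did not pass without AICAR 1 h replicate 3, where the difference was -0.67.

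Bhlhe40, a repressor in the circadian clock that also responds to stimuli, was at 7.78, 7.56 and 7.48 in AICAR and 8.40, 8.51 and 8.27 in controls. It was the 1 of 17 clock genes that fell (5.88%, against 0.471% of all genes), with 0 higher and a median of -0.04. At an unadjusted p under 0.05, 3 clock genes were lower and 0 higher. Of 17 targets of the cAMP-responsive factor CREB, 2 fell, Dusp1 and Ptgs2, which is 11.8% against 0.471% of all genes, with a median of -0.31. All AICAR arrays were below all controls for 8 of the 17 (47.1%, against 7.95% of all genes). Both genes also stand in other lists here. The CREB count was 1 without AICAR 1 h replicate 3 and 4 with quantile normalization. Sertad1, a transcriptional coregulator, fell by 0.60 and Tsc22d3, the glucocorticoid-induced leucine zipper gene, by 0.67. The mean of the 3 Tsc22d3 probe sets gave -0.33 and did not pass (adjusted p = 0.264).

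Stress and growth-arrest genes fell in part. Of 25 tested, 4 fell (16%, against 0.471% of all genes) and 0 rose, and the median was -0.09. Gadd45b, a growth-arrest and DNA-damage-inducible protein, was at 9.01, 8.97 and 8.85 after AICAR against 10.01, 10.16 and 10.06 without it. This was a 2.19-fold fall with SDs of 0.09 and 0.08 (n = 3 each). Ddit4, an inhibitor of mTORC1 induced by stress, was at 8.27, 7.85 and 7.91 in AICAR and 9.13, 9.09 and 8.89 in controls. Ddit3, the CHOP transcription factor of the unfolded protein response, was at 7.40, 7.48 and 7.21 in AICAR and 8.25, 8.18 and 8.09 in controls. Gadd45b and Ddit4 passed with any array left out. Ddit3 passed under 1 of the 6 omissions and Gadd45g, which fell by 0.75, under 0. The list count was 2 without AICAR 1 h replicate 3, with 10 lower and 0 higher at an unadjusted p under 0.05.

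Of 27 NF-kB targets, chemokines and inhibitors, 3 fell (11.1%, against 0.471% of all genes) and 0 rose, with a median of -0.16. Without AICAR 1 h replicate 3 the count was 0 by limma, although 8 were lower at an unadjusted p under 0.05 with all arrays. Cxcl1, a neutrophil-attracting chemokine, was at 4.93, 4.68 and 4.57 in AICAR and 5.66, 5.65 and 5.64 in controls. Its AICAR values all lay below the background level, so the fall was at least 1.48-fold, the control mean over that level (adjusted p = 0.00375). Nfkbia, the inhibitor IκBα, fell by 0.68, with means of 9.58 in AICAR and 10.26 in controls. Ptgs2, the inducible prostaglandin synthase, fell by 0.62 on its brighter probe set, while the other was at 8.56, 8.42 and 8.26 in AICAR and 8.13, 8.02 and 8.10 in controls. The 2 Ptgs2 probe sets differed in opposite directions without overlap, and their mean gave -0.14. Irf1, an interferon-responsive factor, fell by 0.68 and was the 1 of 23 interferon-stimulated genes to pass (4.35%, against 0.471% of all genes). The median of that list was -0.01, with 2 lower and 0 higher at an unadjusted p under 0.05.

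Zinc finger genes made up part of the falls. Of 259 tested genes named Zfp, 8 fell (3.09%, against 0.471% of all genes) and 0 rose. All AICAR arrays were below all controls for 79 of the 259 (30.5%, against 7.95% of all genes), and the median was -0.11. The count was 3 without AICAR 1 h replicate 3 and 11 with quantile normalization. At an unadjusted p under 0.05, 64 were lower and 3 higher. Zfp719 was at 6.03, 5.58 and 5.49 in AICAR and 7.30, 7.30 and 6.81 in controls, a 2.70-fold fall that passed under 3 of the 6 omissions. Zfp866 was at 6.53, 6.04 and 5.89 after AICAR against 7.21, 7.30 and 7.04 without it, and Zfp97 fell by 0.55 (SE 0.08). Both passed with any array left out. Zfp697 (-0.77), Zfp568 (-0.68), Zfp647 (-0.60), Zfp574 (-0.48) and Zfp623 (-0.47) completed the 8. With the Zbtb genes the count was 10 of 293, against 61 of all 12944 genes, adding Zbtb43 (-0.77) and Zbtb34 (-0.63).

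**Figure D3:**
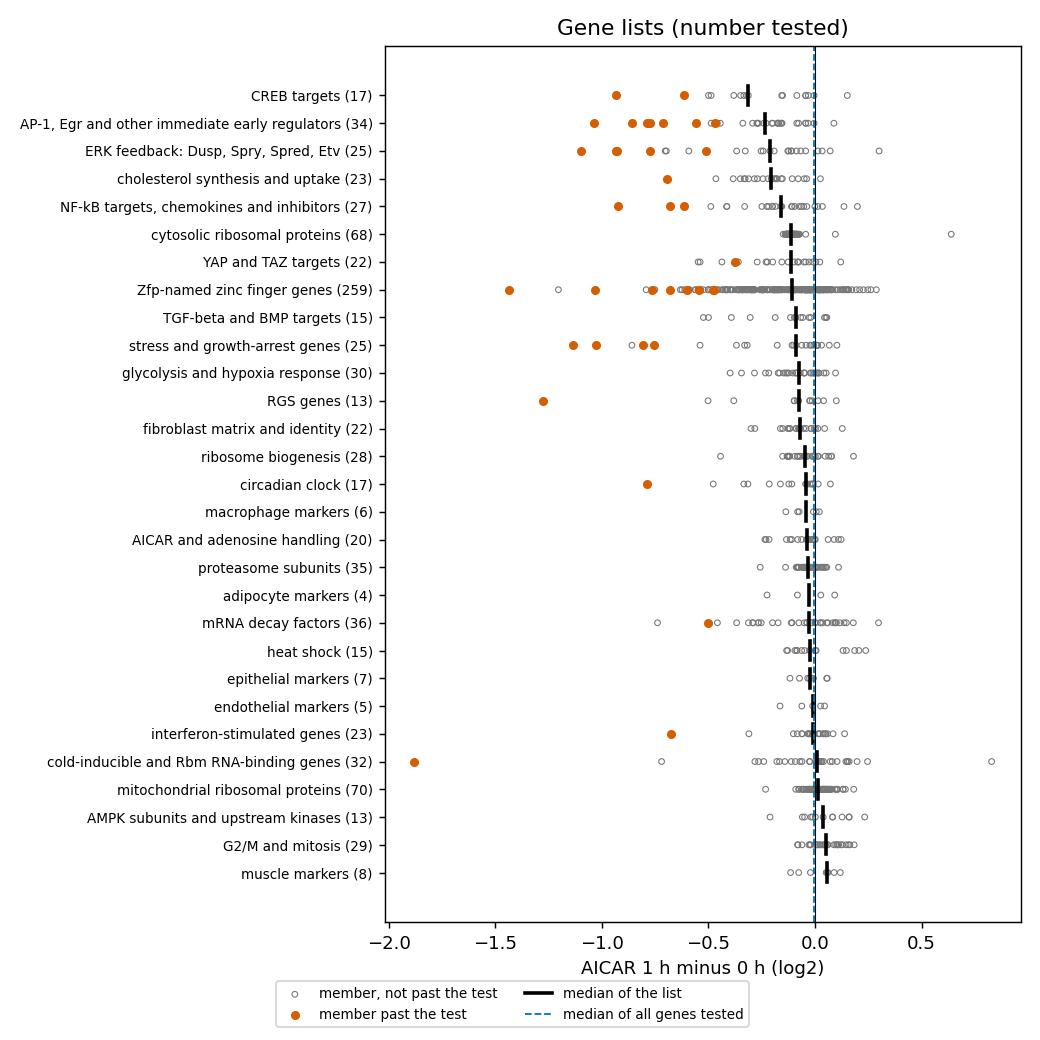
Difference between AICAR 1 h and 0 h (log2, x) for every tested member of 29 gene lists (rows, number tested in brackets), with filled points for members past the test, a bar at each list's median and a dashed line at the median of all genes. Medians run from -0.31 for CREB targets to 0.06 for muscle markers, and the lists with several called genes are those of signal-induced regulators and zinc finger genes.

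The remaining falls had varied roles. Kbtbd8, an adaptor of a CUL3 ubiquitin ligase, was at 4.76, 4.71 and 4.53 in AICAR, below background, and 6.12, 5.70 and 5.44 in controls, and so at least 1.59-fold lower (adjusted p = 0.0218). It passed under 1 of the 6 omissions. Fam43a was at 5.77, 5.59 and 5.73 in AICAR and 6.79, 6.71 and 6.63 in controls. Pvr, the poliovirus receptor gene encoding a nectin-like adhesion protein, was at 8.16, 7.95 and 8.52 in AICAR and 8.84, 9.07 and 9.38 in controls, with 3 other probe sets, at differences of -0.75, -0.37 and -0.36, also lower without overlap. Enc1, an actin-binding kelch protein, fell by 0.62, and another of its probe sets differed by -0.55. Insig1, the endoplasmic reticulum protein that restrains sterol synthesis, fell by 0.69.

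Insig1 was the 1 of 23 tested genes of cholesterol synthesis and uptake that passed (4.35%, against 0.471% of all genes). Yet 22 of the 23 were lower on average, with a median of -0.20. In 11 (47.8%, against 7.95% of all genes) every AICAR array was below every control, and 12 were lower and 0 higher at an unadjusted p under 0.05. Without AICAR 1 h replicate 3 the count was 0 by limma and the median -0.12, and with quantile normalization 4 passed with a median of -0.17. Tob2, which recruits the CCR4-NOT deadenylase, fell by 0.50 and was the 1 of 36 mRNA decay factors that passed (2.78%, against 0.471% of all genes). The median of the decay factors was -0.03, with 8 lower and 0 higher unadjusted. Without AICAR 1 h replicate 3, limma called 0 genes in the RGS, decay, interferon and YAP lists. Other called falls were those of Pdik1l (-0.73), Six4 (-0.58), Tmcc1 (-0.56), Iqcb1 (-0.54), Epc1 (-0.51), Mideas (-0.50), Snx30 (-0.50), Rpusd2 (-0.45), Plcxd2 (-0.43) and Mllt11 (-0.41). With probe sets averaged, Six4, Tmcc1, Epc1, Mideas, Snx30, Rpusd2, Plcxd2 and Mllt11 did not pass. Above background, another Epc1 probe set differed by 0.06 and others of Rpusd2 by 0.07 and -0.53, all with overlap. Those of Tmcc1 (-0.35), Plcxd2 (-0.34) and Snx30 (-0.13) were lower without overlap. Tmcc1 and Snx30 passed under 0 of the 6 omissions and Rpusd2 under 1. Pisd-ps3, a pseudogene, fell by 0.75 on 1 probe set while another was higher by 0.33 without overlap. Its signal may include that of related transcripts.

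The single rise was that of Disp1, which encodes a transmembrane protein that releases Hedgehog ligands from cells. It was at 5.86, 6.04 and 5.63 in AICAR and 4.75, 4.86 and 4.56 in controls, a measured difference of 1.11 (adjusted p = 0.0188). All its controls lay below the background level, so it was at least 1.69-fold higher in AICAR. It did not pass when any 1 of the 6 arrays was left out. Of 908 distinct genes in the 29 lists, 34 fell and 0 rose, against 61 and 1 of all 12944 genes. At an unadjusted p under 0.05, 9 of the 908 were higher, against 168 of the 12944. Rps15a was the ribosomal protein gene that came nearest, at 6.40, 6.45 and 6.14 in AICAR and 5.89, 5.70 and 5.49 in controls.

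Several pathways around AICAR itself had no called gene, while the list of YAP and TAZ targets had 1. None of 20 genes for AICAR and adenosine handling passed in limma (median -0.03, with 2 lower and 0 higher at an unadjusted p under 0.05), and Adk, the kinase that phosphorylates AICAR, differed by -0.11. None of 13 AMPK subunits and upstream kinases passed either (median 0.04, with 1 lower and 0 higher unadjusted). Txnip, an inhibitor of glucose uptake known to respond to energy stress, differed by -0.02. Of the Hippo kinases, Lats1 differed by 0.02, and Lats2 had 7.59, 7.83 and 7.56 in AICAR and 8.20, 8.14 and 8.29 in controls. The Lats2 arrays did not overlap, but the difference of -0.55 did not pass (adjusted p = 0.136). Of 22 YAP and TAZ targets, Amotl2 fell (4.55%, against 0.471% of all genes) and 0 rose, with a median of -0.11. Unadjusted, 6 were lower and 0 higher. On average 19 of the 22 were lower. All AICAR arrays were below all controls for 10 of the 22 (45.5%, against 7.95% of all genes). Amotl2 passed under 1 of the 6 omissions and not with quantile normalization (adjusted p = 0.0971), under which 2 other members, Lats2 and Gadd45a, were lower.

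Lists of housekeeping, heat shock, hypoxia and TGF-beta target genes gave no call in limma on the values as deposited. With quantile normalization 1 heat shock and 1 cytosolic ribosomal protein gene were higher. Of 29 genes of G2/M and mitosis, 0 passed (median 0.05, with 0 lower and 0 higher at an unadjusted p under 0.05). For the next lists the brackets give the median and then the unadjusted lower and higher counts. Of 28 ribosome biogenesis genes 0 passed (-0.05, 1 and 0), of 30 genes of glycolysis and hypoxia 0 (-0.08, 4 and 0), of 15 heat shock genes 0 (-0.03, 0 and 1), and of 15 TGF-beta and BMP targets 0 (-0.09, 1 and 0). The 35 proteasome subunits (-0.03, 0 and 0) and 70 mitochondrial ribosomal proteins (0.02, 1 and 1) likewise had 0. Cytosolic ribosomal protein genes had 0 of 68 with a median of -0.11 (0 and 1 unadjusted). That median was 0.01 without AICAR 1 h replicate 3 and 0.00 with quantile normalization. All AICAR arrays were below all controls for 5 of the 15 TGF-beta and BMP targets (33.3%, against 7.95% of all genes). The same held for 6 of the 30 glycolysis and hypoxia genes (20%), 5 of the 28 ribosome biogenesis genes (17.9%) and 0 of the 15 heat shock genes.

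The cells carried fibroblast markers in part. Of 11 fibroblast markers 8 were above background in controls, led by Vim at 13.20, while Col1a2, Lum and Thy1 were below it. All 5 muscle markers, 3 of 5 epithelial, 1 of 5 macrophage, 1 of 4 endothelial and 1 of 3 adipocyte markers were also above background, the epithelial Krt19 at 9.82. That level of 5.08 is low, under the median signal of each of the 6 arrays. Control means of Myog (5.14), Myod1 (5.31) and Krt18 (5.37) were little above it, those of Acta1 (6.68) and Des (6.76) further. The summed level of the fibroblast markers was 82.37 to 84.34 on the AICAR arrays and 83.94 to 84.53 on the controls, and for each of the other 5 types the ranges of the 2 groups overlapped. None of the 22 tested fibroblast matrix and identity genes passed (median -0.07, with 2 lower and 0 higher at an unadjusted p under 0.05). In the lists of 6 macrophage, 7 epithelial, 5 endothelial, 4 adipocyte and 8 muscle markers 0 passed by limma, and 0 also at an unadjusted p under 0.05, with medians of -0.04, -0.03, -0.01, -0.03 and 0.06.

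Promoters were read for the lower genes, a group defined by the fall at 1 h. RefSeq (GRCm38.p6) gave a promoter, 250 bases before to 50 after the start, for 45 of the 61 lower genes. Those of 4 genes are shown as examples of a TATA box, NF-kB matches and a cAMP response element, chosen after their matches were seen. In Gadd45b (chr10:80929841-80930140, plus strand) the capitals mark a TATA box 46 bases before the start. In Fosl2 (chr5:32136222-32136521, plus strand) and Cxcl1 (chr5:90890995-90891294, plus strand) they mark NF-kB matches, overlapping ones that begin 182 and 71 bases before it. In Dusp1 (chr17:26508423-26508722, minus strand) they mark a full cAMP response element (CRE) 143 bases before it.
Gadd45b: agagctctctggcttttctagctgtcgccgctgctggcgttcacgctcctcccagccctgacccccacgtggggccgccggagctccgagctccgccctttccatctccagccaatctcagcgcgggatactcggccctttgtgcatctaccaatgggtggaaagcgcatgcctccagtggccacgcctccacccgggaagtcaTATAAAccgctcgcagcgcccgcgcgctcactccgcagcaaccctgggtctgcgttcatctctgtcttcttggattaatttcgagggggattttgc
Fosl2: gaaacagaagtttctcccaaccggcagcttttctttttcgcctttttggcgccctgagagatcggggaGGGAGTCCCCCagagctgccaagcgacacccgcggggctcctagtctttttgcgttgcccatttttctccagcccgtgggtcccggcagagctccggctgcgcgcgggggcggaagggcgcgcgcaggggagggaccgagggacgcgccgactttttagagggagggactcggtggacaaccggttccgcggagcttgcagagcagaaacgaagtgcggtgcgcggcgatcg
Dusp1: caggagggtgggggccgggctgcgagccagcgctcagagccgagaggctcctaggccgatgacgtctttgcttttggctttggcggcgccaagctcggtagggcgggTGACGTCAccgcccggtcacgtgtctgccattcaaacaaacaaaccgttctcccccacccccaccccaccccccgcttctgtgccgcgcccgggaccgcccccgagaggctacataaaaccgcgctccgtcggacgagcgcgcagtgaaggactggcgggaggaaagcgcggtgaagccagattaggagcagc
Cxcl1: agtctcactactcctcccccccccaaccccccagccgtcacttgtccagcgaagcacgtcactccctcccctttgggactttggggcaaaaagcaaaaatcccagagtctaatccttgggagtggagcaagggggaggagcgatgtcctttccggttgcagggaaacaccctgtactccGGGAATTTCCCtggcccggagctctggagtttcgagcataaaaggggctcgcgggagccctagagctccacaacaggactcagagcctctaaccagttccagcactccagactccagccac

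Motifs were searched on both strands, and shares were counted per gene over 10401 tested genes with a promoter. NF-kB matches were in 6 of the 45 lower genes (13.3%) and 6.21% of tested genes, CArG boxes of serum response factor in 2 (4.44%) and 1.59%, and the sterol element TCACNCCAC in 2 (4.44%) and 1.50%. The CRE TGACGTCA was in 2 (4.44%) and 3.38%, its core TGACG, which every CRE also holds, in 13 (28.9%) and 33.3%, and the TATA box TATAAA in 5 (11.1%) and 9.91%. The AP-1 site TGANTCA was in 1 (2.22%) and 6.61%, the E-box CACGTG in 5 (11.1%) and 11.3%, and the GC box GGGCGG in 34 (75.6%) and 64.6%. Each motif other than the GC box and the CRE core was found in at most 6 lower genes, and a match describes letters, not a bound site.

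How far the falls rest on single probe sets differed by gene. Of the 61 lower genes, 34 were measured by 1 probe set and 27 by several. The 27 had 49 other probe sets, of which 30 in 19 genes were above background by their mean over the 6 arrays. In 15 of the 30 every AICAR array was below every control, in 2 every one was above, and in 13 the groups overlapped, with a median difference of -0.25. With a gene's probe sets averaged, 42 of the 62 called genes still passed. Averaging leaves the values of the 34 with 1 probe set, and of Disp1, as they were. Of the 27 with several, those that still passed were Zfp719, Rgs16, Pvr, Jun, Zbtb43, Pdik1l, Klf3 and Trib1, and the rest did not. The mean was -0.76 for Zfp719, -0.75 for Rgs16, -0.46 for Pvr and -0.36 for Klf3, which passed, and -0.52 for Kbtbd8 and -0.33 for Enc1, which did not.

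At 2 h some of the 61 were back near their level at 0 h and others were not. The comparison of 2 h with 1 h shares the 1 h arrays with the comparison above, and the differences at later times share its controls, so values are given side by side. Group means at 0, 1, 2, 4, 8, 12 and 24 h were 7.10, 5.22, 6.56, 7.31, 7.14, 7.33 and 7.64 for Rbm3. Ddit4 had 9.04, 8.01, 8.78, 9.37, 9.31, 9.10 and 8.97 and Zfp866 7.18, 6.15, 7.36, 7.63, 7.34, 7.26 and 7.33. In these 3 genes the lowest mean was at 1 h, and from 4 h on the mean farthest from its control was that of Rbm3 at 24 h, 0.53 above it. Tsc22d3 went through 7.78, 7.10, 7.99, 8.46, 8.48, 8.65 and 8.70, ending above its starting level.

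Other genes stayed low through 24 h. Rgs16 had means of 8.20, 6.92, 6.87, 7.04, 7.09, 6.08 and 6.21, and Gadd45b 10.08, 8.95, 9.07, 8.87, 9.31, 9.12 and 8.78. Dusp6 had 9.47, 8.54, 8.48, 8.25, 8.44, 7.63 and 7.84, and Ptgs2 on its brighter probe set 10.29, 9.68, 9.69, 9.37, 9.49, 9.16 and 8.15. In Rgs16, Gadd45b, Dusp6 and Ptgs2 the lowest means came at 12 or 24 h, not at 1 h. Egr1 had 9.75, 8.89, 8.68, 9.52, 9.24, 9.14 and 11.19, below the controls through 12 h and above them at 24 h. Malat1 had 7.79, 6.81, 6.88, 7.03, 7.58, 7.99 and 9.25, below the controls through 8 h and above them at 12 and 24 h. The genes given over time here and in the plot of signal by hours were chosen after their values were seen.

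**Figure D4:**
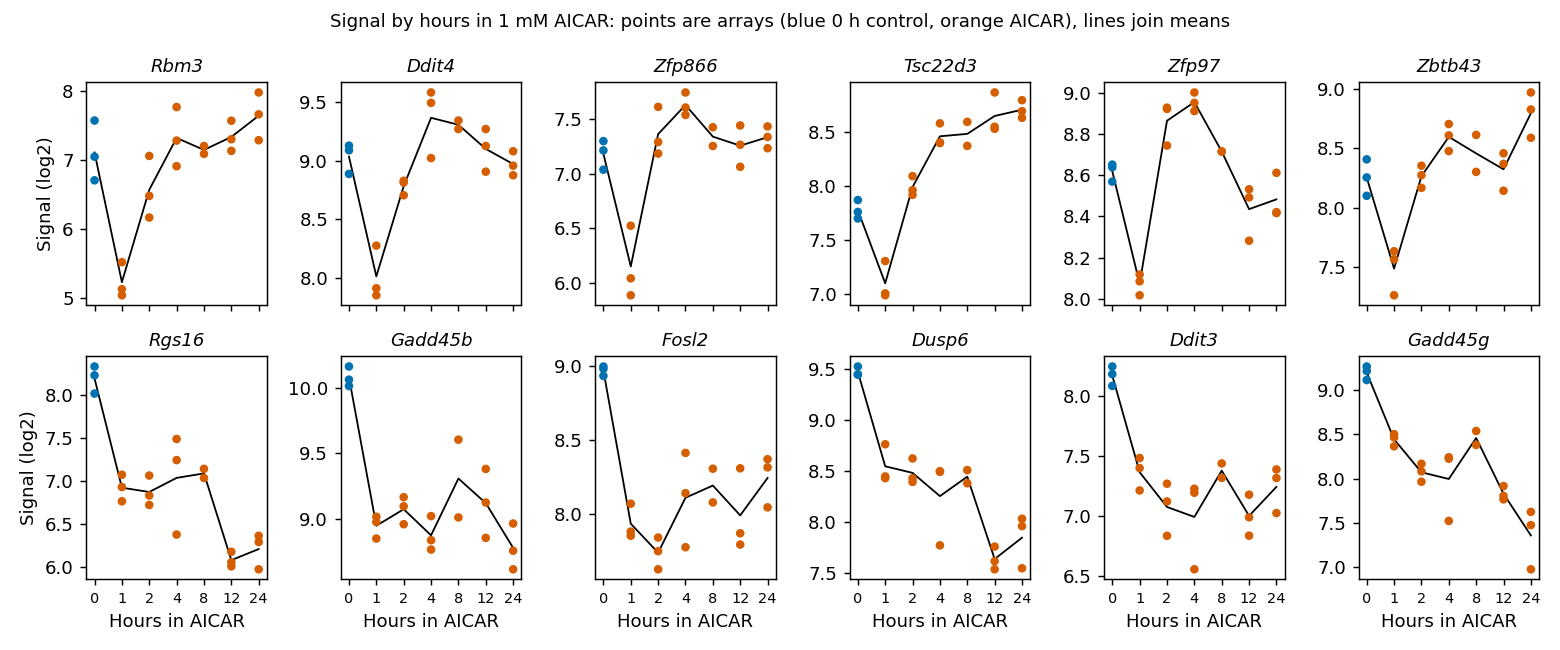
Log2 signal (y) by hours in 1 mM AICAR (x, 0 to 24 h in sampling order, not to scale) for 12 of the 61 lower genes, with a point per array and a line through the means. In the upper row signals dip at 1 h and are near or above the 0 h level by 4 h, and in the lower row they stay below the 0 h mean at every later time.

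Between 1 h and 2 h in AICAR, 86 genes rose (0.664% of 12944) and 8 fell (0.0618%). Leaving out replicate 3 or 2 of the 1 h arrays gave 34 and 46 genes in place of 94, and leaving out replicate 1, 2 or 3 of the 2 h arrays gave 61, 50 and 40. The 8 largest rises were those of Rbm3 (1.34), Zfp267 (1.28), Zfp948 (1.28), Zfp866 (1.21), Zbtb7a (0.93), Zfp11 (0.93), Tsc22d3 (0.89) and Zfp367 (0.85). Rbm3 was at 6.47, 6.16 and 7.05 on the 2 h arrays, against 5.51, 5.03 and 5.12 at 1 h. Of the 8, 6 were zinc finger genes, and 16 of the 259 Zfp genes (6.18%) rose over this hour. All 8 genes that fell are named: Ppp1r10 (-1.03), a nuclear regulatory subunit of protein phosphatase 1, Jrk (-0.85), Fam43a, Tbcc (-0.66), Tmem177 (-0.65), Myc (-0.64), Jmjd4 (-0.63) and Dolk (-0.32). Fam43a, which had also fallen by 1 h, was at 4.81, 4.90 and 4.93 at 2 h, all below background, against 5.77, 5.59 and 5.73 at 1 h, so it was at least 1.53-fold lower at 2 h. Myc, a growth-promoting transcription factor, was at 9.39, 9.30 and 9.51 at 2 h, against 10.06, 10.10 and 9.96 at 1 h, and its mean at 0 h was 10.12.

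**Figure D5:**
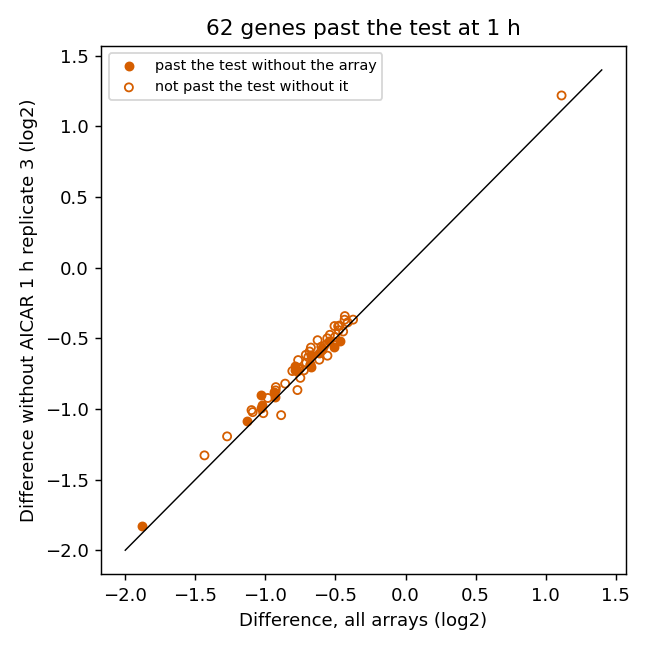
Difference between AICAR 1 h and 0 h (log2) for the 62 called genes, with all arrays (x) and without AICAR 1 h replicate 3 (y), and a line of equality. All 61 lower genes stay below 0, and filled points mark the 18 that still pass.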

How the data were processed

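Per the labels' protocols, total RNA from the fibroblasts was extracted with an RNeasy kit and labelled as biotinylated cRNA. The authors deposited a value table of log2 signals per probe set, and the sources used here do not give its normalization. Array medians lay between 5.18 and 5.24 on the 6 arrays compared. The number of arrays limits the precision.

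Of 45141 probe sets, 104 array controls were left out. The platform annotation named 28898 probe sets with 1 gene symbol and 551 with several, and did not list 15692. Symbols were updated through gene IDs for 28689. From 17097 genes, 1 probe set each was kept, that of highest mean over the 20 arrays, and 4153 genes whose highest group mean was at or under 4.81 (the 40th percentile) were removed.

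The 12944 others were fitted in 1 limma 3.58.1 model (R 4.3.3, lmFit and eBayes, all 20 arrays, 1 mean per time). The fit had 13 residual degrees of freedom, and p-values were adjusted by Benjamini-Hochberg over all genes, with a threshold of 0.05. The fit was tested on simulated data. GRCm38.p6 RefSeq tables gave symbols, spans and promoters.

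The compared arrays, the gene lists and the tests were chosen with earlier results of these data known. Genes named were the 20 largest falls, the rises, other called genes, up to 6 called members of each list (or the 3 of largest t, as values), the 8 largest changes each way between 1 h and 2 h, and Prkaa1, Prkaa2, Lats1, Lats2, Txnip and Adk, except where chosen after their values were seen. The replicate numbers were not taken to pair the arrays. Alternatives covered normalization, filter, probe set choice, variance, array weights, pairing, threshold, the samples in the fit and leaving out each array. Leaving out AICAR 1 h replicate 3 with quantile normalization was chosen after seeing the data. Beside the 29 lists used, 1 further list is not reported here.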

Additional observations from a re-analysis of the deposited data

Results flagged for a closer look

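Some levels differed between 2 h and 1 h in AICAR by a test of that difference, which sets them apart from genes whose first-hour change merely passed or missed the threshold against the controls. There were 94 such genes. Rbm3 was higher at 2 h than at 1 h by 1.34, Zfp267 by 1.28, Zfp948 by 1.28, Zfp866 by 1.21, Zbtb7a by 0.93, Zfp11 by 0.93, Tsc22d3 by 0.89 and Zfp367 by 0.85 on the log2 scale. All 3 arrays at 2 h were above all 3 at 1 h for each of these 8, which were chosen by the same arrays, so this adds no support. The differences of the genes that were lower at 2 h were -1.03 for Ppp1r10, -0.85 for Jrk, -0.66 for Tbcc, -0.65 for Tmem177, -0.64 for Myc, -0.63 for Jmjd4 and -0.32 for Dolk. Fam43a was also lower, by a measured -0.82, but its 2 h mean of 4.88 was below background and its 1 h mean was 5.70, so it was at least 1.53-fold lower at 2 h. All 3 arrays at 2 h were below all 3 at 1 h for each of these 8, likewise chosen by the same arrays. The causes were not tested.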

How the results depend on the processing

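The 62 genes called at 1 h became 110 with quantile normalization, 153 with the interquartile range covariate, 421 with array weights (whose estimation stopped before converging), 194 in a fit of the 2 groups alone and 34 at an adjusted p under 0.01. Lower genes (61) became 130, 339, 188 and 34 under the last 4, and higher genes (1) became 26, 23, 82, 6 and 0 under those 5. Higher genes were also 0 with median centring, 3 with the filter at the 60th percentile, 2 with the mean of all probe sets, 6 with each probe set alone and 3 with trended and robust variance. Without 1 array at a time, the counts ran from 18 to 60 (changed), 18 to 60 (lower) and 0 to 0 (higher). Without AICAR 1 h replicate 3 and with quantile normalization of the others, 57 genes passed, 47 lower and 10 higher. The lowest counts came without AICAR 1 h replicate 3 (18), AICAR 1 h replicate 2 (30), control replicate 2 (31) and control replicate 1 (41).

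The 94 genes that differed between 2 h and 1 h became 48 with median centring, 213 with the interquartile range covariate, 61 with the mean of all probe sets, 189 with array weights and 46 at an adjusted p under 0.01. They ranged from 34 to 91 without 1 array at a time, and were 52 without AICAR 1 h replicate 3 and with quantile normalization. The sign of Cramp1l, called higher at 2 h than at 1 h (0.46), turned without _x_ and _s_ probe sets (-0.13, adjusted p = 0.916, limma). None of the 62 genes called at 1 h changed sign under the settings run, with the chosen probe set kept where each was tested alone. Other probe sets of Ptgs2 and Pisd-ps3 were higher by 0.33.

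With the replicate number as a block the counts were 107 at 1 h (99 lower, 8 higher) and 150 between 2 h and 1 h. The numbers share no source in the labels. Same-numbered arrays had correlations of deviations of 0.14, -0.09 and 0.54, and not every array correlated best with its own number. Probe sets near the background level of 5.08 give differences that understate change.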
